A study of Mus musculus with 26 samples.

Results

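The peaks described here are regions of open chromatin that were found in Kupffer cells of C57BL/6J mice and not in those of BALB/cJ mice. A peak was taken when it overlapped by at least 1 bp a reproducible peak in both C57BL/6J lists, untreated and LPS, and none in either BALB/cJ list. Of 94171 peaks on chromosomes 1 to 19, 1497 (1.59%) were chosen by this rule, and they are called C57BL/6J-only peaks below. The opposite pattern, both BALB/cJ lists and neither C57BL/6J list, held for 2722 peaks (2.89%), and 39537 peaks were in all 4 lists. The lists were of unlike length, with 81161 peaks in BALB/cJ control, 58929 in BALB/cJ LPS, 63145 in C57BL/6J control and 65093 in C57BL/6J LPS. The counts of the opposite patterns therefore cannot be compared. The name C57BL/6J-only describes the lists and not an absence of signal, since 1207 of the 1497 peaks had a peak call in at least 1 single BALB/cJ library.

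The study mapped accessible chromatin by ATAC-seq, in which a transposase cuts open DNA and tags it for sequencing, in Kupffer cells, which are macrophages that reside in liver sinusoids and were sorted from male mice. The treated groups were C57BL/6J LPS (3 libraries), BALB/cJ LPS (2) and CB6F1/J LPS (5), taken from mice 2 h after 0.1 mg/kg of lipopolysaccharide, the bacterial ligand of TLR4. The untreated groups were A/J control (4), CB6F1/J control (4), C57BL/6J control (4) and BALB/cJ control (4). Their mice were fasted too but not injected per the labels, whereas the library names in the headers of the peak files mention fasting for the inbred LPS libraries only. The library numbers follow the labels and these headers, while a legend of the study gives those of C57BL/6J LPS and BALB/cJ LPS the other way round. The library names carry 1 date for all control groups and other dates for the LPS groups, which also differ between C57BL/6J LPS and BALB/cJ LPS. The inbred strains differ in many inherited variants, and CB6F1/J is the hybrid of BALB/cJ and C57BL/6J, so that both parental alleles share each nucleus. Tags that span a variant tell the alleles of the hybrid apart. Open regions away from gene starts include enhancers. In macrophages these are opened by PU.1, C/EBP and AP-1 factors together with factors that respond to signals, such as NF-kB and IRF proteins. A variant that acts in cis changes one allele in a hybrid nucleus, whereas a difference made by other factors of the cell acts on both alleles, so the hybrid separates these cases.

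Inbred libraries held 2079333.5 to 7536815.5 tags in the peaks used, apart from BALB/cJ control replicate 4 with 47196703. The C57BL/6J control libraries held 0% mitochondrial tags, against 18.6 to 28.7% in the other inbred libraries. Promoter peaks of 11 Kupffer cell markers summed to 1449 to 1797 normalised counts in the libraries of the untreated inbred groups. They summed to 795 to 1211 in the LPS libraries. Those of monocyte, neutrophil, hepatocyte, endothelial and stellate cell markers, 1 or 2 peaks per cell type, summed to at most 89.9 in any library. These sums are over unlike numbers of peaks and cannot be compared. The neutrophil marker S100a8 averaged 74.5 in BALB/cJ control, where single Kupffer cell markers averaged 15.6 (Folr2) to 394.6 (Id3). No marker of lymphocytes had a promoter peak, and 4 of 5 markers of hepatocytes and of neutrophils had none. All p-values below come from the hybrid libraries and measure the spread between them.

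Sequences of 7 of the C57BL/6J-only peaks are printed from the mm10 reference, which is the C57BL/6J sequence, on the plus strand. The first 5 stand for peaks in which the hybrid alleles differed, and the last 2 for peaks near an inflammasome sensor and a macrophage receptor that were open in A/J mice too. Capitals mark letters matching AP-1 (TGANTCA), C/EBP (TTGCNNAA or TTNNGCAA), IRF (GAAANNGAA or TTCNNTTTC) or PU.1 (GAGGAAGT or ACTTCCTC). The peak near Supt20 lies between genes at chr3:54601192-54601392, that near Hrh2 in an intron of a non-coding transcript at chr13:54215902-54216102, and that near Cldn23 between genes at chr8:35716585-35716785. The peak in intron 13 of 19 of Ttc27 lies at chr17:74802839-74803039, and that near Nxpe4 lies between genes at chr9:48407637-48407837. The peak near Nlrp1b lies in an intron of the non-coding transcript of the neighbouring pseudogene at chr11:71251417-71251617, and that near Marco lies between genes at chr1:120467410-120467610.
Supt20: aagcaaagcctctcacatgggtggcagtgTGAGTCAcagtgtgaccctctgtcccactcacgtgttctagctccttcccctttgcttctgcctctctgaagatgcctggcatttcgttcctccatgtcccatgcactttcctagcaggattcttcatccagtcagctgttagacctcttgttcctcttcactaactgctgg
Hrh2: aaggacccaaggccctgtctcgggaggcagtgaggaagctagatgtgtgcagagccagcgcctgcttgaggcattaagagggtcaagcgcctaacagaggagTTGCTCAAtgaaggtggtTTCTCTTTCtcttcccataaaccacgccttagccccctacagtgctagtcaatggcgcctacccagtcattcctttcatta
Cldn23: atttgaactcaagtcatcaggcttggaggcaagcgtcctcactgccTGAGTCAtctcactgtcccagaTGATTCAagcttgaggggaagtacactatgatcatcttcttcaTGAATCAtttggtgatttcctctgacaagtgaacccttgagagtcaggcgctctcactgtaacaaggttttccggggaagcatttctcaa
Ttc27: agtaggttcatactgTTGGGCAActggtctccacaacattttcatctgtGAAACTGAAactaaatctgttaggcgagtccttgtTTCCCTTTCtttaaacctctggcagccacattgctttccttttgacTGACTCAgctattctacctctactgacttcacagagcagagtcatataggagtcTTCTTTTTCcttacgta
Nxpe4: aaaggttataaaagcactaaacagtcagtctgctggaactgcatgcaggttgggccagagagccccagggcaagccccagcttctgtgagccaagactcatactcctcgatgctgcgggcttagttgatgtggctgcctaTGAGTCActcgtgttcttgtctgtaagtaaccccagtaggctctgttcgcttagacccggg
Nlrp1b: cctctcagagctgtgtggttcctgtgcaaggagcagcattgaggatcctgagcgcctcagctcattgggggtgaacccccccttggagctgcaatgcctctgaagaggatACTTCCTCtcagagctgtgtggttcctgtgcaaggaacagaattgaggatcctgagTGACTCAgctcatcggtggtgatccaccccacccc
Marco: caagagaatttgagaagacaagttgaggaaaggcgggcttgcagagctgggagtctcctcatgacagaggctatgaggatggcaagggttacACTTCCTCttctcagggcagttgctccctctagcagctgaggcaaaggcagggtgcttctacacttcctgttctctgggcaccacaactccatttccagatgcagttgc

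The 201 bases near Cldn23 held 3 matches to AP-1, and the peak in Ttc27 held 1 to AP-1, 3 to IRF and 1 to C/EBP. The peaks near Supt20, Nxpe4 and Nlrp1b each held 1 AP-1 match, those near Nlrp1b and Marco each 1 PU.1 match, and that near Hrh2 1 IRF and 1 C/EBP match. Of all peaks, 14.3% held AP-1 letters, 11.5% C/EBP, 8.88% IRF and 8.59% PU.1 letters. A match is a string of letters and was not tested as a binding site.

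The C57BL/6J-only peaks were of moderate strength in C57BL/6J and weak in BALB/cJ. Their median normalised count, the tag count scaled to library size, was 24.8 in C57BL/6J LPS, against 6.57 in BALB/cJ LPS. It was 19.5 in C57BL/6J control (range over the peaks 3.84 to 265.9), against 4.53 in BALB/cJ control (0 to 141.9). Peaks in all 4 lists had higher medians, of 54.1 in C57BL/6J LPS and 53.6 in C57BL/6J control. Over all 94171 peaks, many of which are not in a C57BL/6J list, the medians lay between 17.7 and 22.7 in each of the 5 inbred groups. These values chose the peaks, so they are given without a test.

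**Figure D1:**
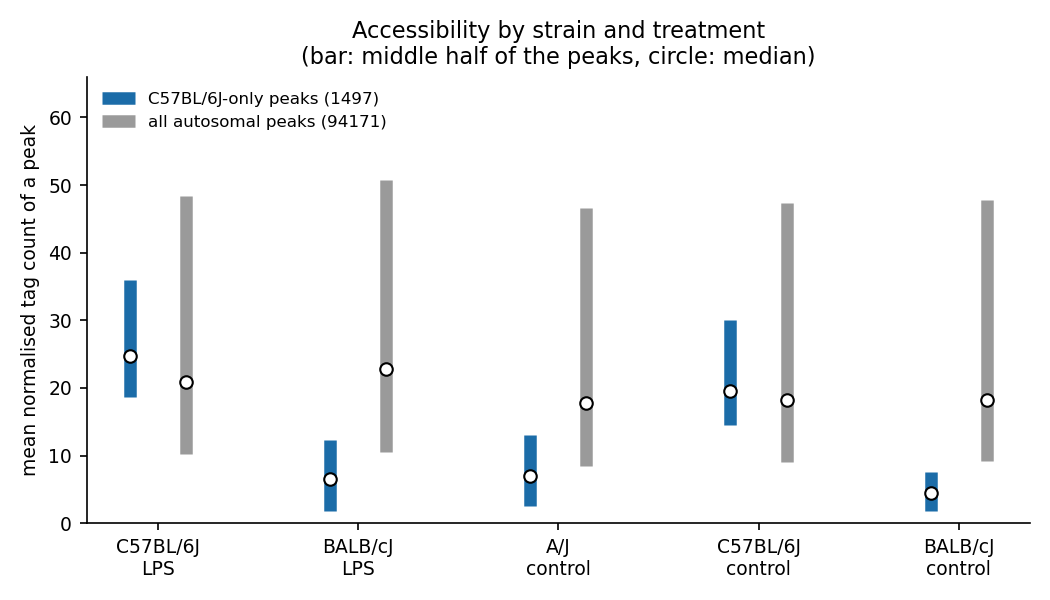
Mean normalised tag count per peak (vertical axis) in the 5 inbred groups (horizontal axis) for the 1497 C57BL/6J-only peaks (blue) and all 94171 autosomal peaks (grey). Bars span the quartiles and circles mark medians, which for the C57BL/6J-only peaks are 6.94 in A/J control, 19.5 in C57BL/6J control and 4.53 in BALB/cJ control.

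The size of the strain difference varied widely. The log2 ratio of C57BL/6J over BALB/cJ had a median of 1.97 in LPS mice and of 2.16 in control mice (quartiles 1.11 and 3.91). It was over 1 in 1173 peaks in control, over 2 in 794, over 3 in 519 and below 0 in 17. In 980 peaks it was over 1 in both conditions. Every C57BL/6J control library lay above every BALB/cJ control library in 1003 of the 1497 peaks (67.0%), beside 7.13% of all peaks. The 290 peaks without a call in any single BALB/cJ library had a median log2 ratio of 6.02, against 1.75 for the 1207 with one. Of these 1207, 987 had a call in the deep BALB/cJ control replicate 4.

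The limits of the rule show in single peaks. The peak near Bcl6, a transcriptional repressor, entered with the lowest C57BL/6J score of 540 and had 10.1 ± 1.0 normalised counts in C57BL/6J control and 8.05 ± 5.54 in BALB/cJ control (SD, n = 4 each). The peak near Spsb4, with the same score, had 10.6 ± 0.81 in C57BL/6J control and 2.20 ± 1.48 in BALB/cJ control. A peak at the promoter of Pigl stayed out because it shared 2 bases with BALB/cJ peaks, and had 16.1 ± 3.9 in C57BL/6J control and 16.1 ± 7.2 in BALB/cJ control. The peak near Psma3 stayed out by 2 bases shared with a peak of the BALB/cJ LPS list only. It had 16.9, 19.5 and 7.17 in C57BL/6J LPS, against 3.49 and 5.28 in BALB/cJ LPS, and 21.6 ± 6.5 in C57BL/6J control, against 25.97 ± 6.14 in BALB/cJ control.

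The hybrid libraries played no part in the choice, so the alleles could be tested there. A peak was called when edgeR gave an adjusted p under 0.05 and an absolute log2 ratio over 1, among peaks with a mean normalised count above 16. Of the 1497 peaks, 1200 matched a peak of the hybrid and 656 of these had any variant-spanning tag. In CB6F1/J LPS, the deeper hybrid group, 235 of the peaks were tested. Of these, 186 (79.2%) were higher on the C57BL/6J allele, beside 10.4% of all hybrid peaks tested. None was higher on the BALB/cJ allele, beside 8.29% of all, and 1 was below 0 at an unadjusted p under 0.05, while DESeq2 gave 188 and 0. The median log2 ratio of the C57BL/6J allele over the BALB/cJ allele was 2.25, against -0.0021 over all hybrid peaks tested.

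In CB6F1/J control, 104 had enough tags to be tested. Of these, 70 (67.3%) were higher on the C57BL/6J allele, beside 4.97% of all hybrid peaks tested, and 34 were not called. None was called higher on the BALB/cJ allele, beside 4.28% of all peaks tested, and none was below 0 at an unadjusted p under 0.05. DESeq2 gave 81 and 0. The median log2 ratio was 2.45, against -0.02 over all hybrid peaks tested. The count of 70 fell to 16 without replicate 1 and to 46 without replicate 2, and 64 of the 70 peaks could still be tested without replicate 1, all 64 with a log2 ratio over 1. Of the 83 peaks tested in both conditions, 57 were called in both, 17 in LPS only, 3 in control only and 6 in neither. The difference between the conditions was not tested. Peaks of the opposite pattern gave the mirror image, with 191 of 262 tested in LPS called higher on the BALB/cJ allele and 1 on the C57BL/6J allele.

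Summed over the 1200 matched peaks, the C57BL/6J allele carried 79.3 to 81.8% of variant-spanning tags in the 5 LPS animals and 78.8 to 81.1% in the 4 control animals. The lowest share, 78.8% in control replicate 1, had a 95% Wilson interval of 78.1 to 79.5%, which covers counting error only. Over all peaks the share was 50.7 to 51.1% in each animal. Over the 235 peaks tested in LPS the medians were 2.25 between alleles and 3.26 between strains (Pearson r across peaks 0.70), and over the 104 tested in control they were 2.45 and 4.37 (r = 0.66). The inbred libraries chose the peaks for a strain difference, so the sizes of the strain and allele ratios cannot be compared. The correlations are over peaks, which share their libraries, and are given without a test.

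**Figure D2:**
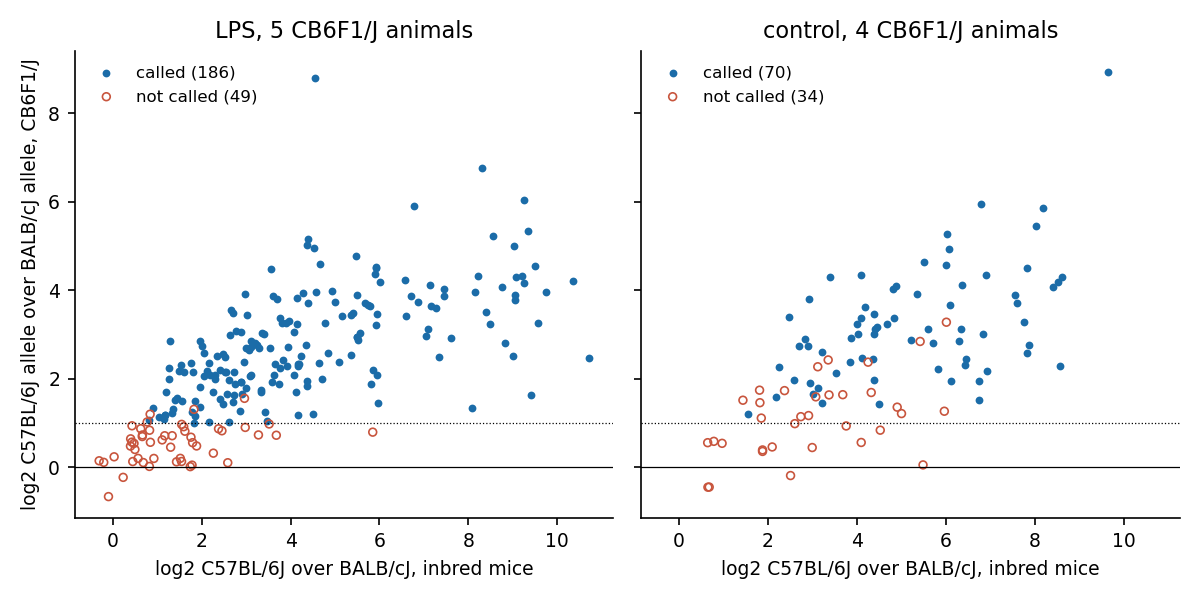
Each point is a C57BL/6J-only peak tested in the hybrid, with the log2 ratio of inbred C57BL/6J over BALB/cJ on the horizontal axis and the log2 ratio of the C57BL/6J allele over the BALB/cJ allele on the vertical axis, in LPS (left) and control (right). Filled points were called higher on the C57BL/6J allele (186 in LPS, 70 in control), open points were not, and no point was called below 0.

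Calls were frequent among peaks without signal enough for a call in any BALB/cJ library. Of peaks without a call in any single BALB/cJ library, 58 of 58 tested in LPS and 29 of 33 tested in control were called, against 128 of 177 and 41 of 71 among the peaks with such a call. The difference between these shares was not tested.

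The peak with the smallest p in hybrid control lay 63.3 kb from Gcnt1, an enzyme that branches O-linked glycans, inside an L1_Mus3 LINE element (chr19:17276075-17276275). It had 147, 167, 161 and 184 normalised counts in the C57BL/6J control libraries and 0 to 1.95 in the 4 BALB/cJ control libraries. In the LPS hybrids the log2 ratio of the C57BL/6J allele over the BALB/cJ allele was 6.04 ± 0.39 (SE, edgeR adjusted p = 1.67e-05, n = 5). In the control hybrids the C57BL/6J allele had 179, 111, 128 and 168 normalised counts and the BALB/cJ allele 4.41, 9.31, 7.40 and 10.7. The alleles did not overlap, and their log2 ratio was 4.20 ± 0.28 (edgeR adjusted p = 0.00178, n = 4).

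The peak near Supt20, which encodes a subunit of the SAGA coactivator complex, is the first of the printed sequences. In the LPS hybrids the C57BL/6J allele had 85.8 to 155 normalised counts and the BALB/cJ allele 3.66 to 8.51, a log2 ratio of 4.38 ± 0.18 (edgeR adjusted p = 4.72e-06, n = 5). In the control hybrids the C57BL/6J allele had 59.7, 40.3, 35.7 and 50.8 normalised counts, whereas the BALB/cJ allele had 2.64 in replicate 1 and 0 in the others. Summed over the 4 animals this was 191 tags against 3, a ratio of 63.7 with a counting interval of 21.5 to 311.5 (edgeR adjusted p = 0.0048, n = 4). A/J mice were open at this peak, with 69.5 ± 10.2 normalised counts, against 47.7 ± 14.4 in C57BL/6J control and 0.34 ± 0.67 in BALB/cJ control (SD, n = 4 each).

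The peak near Hrh2, the histamine receptor H2, had 113 ± 20 normalised counts in C57BL/6J control and 1.69 ± 1.14 in BALB/cJ control. In the LPS hybrids the log2 allele ratio was 3.88 ± 0.24 (edgeR adjusted p = 1.39e-05, n = 5). Its C57BL/6J allele had 61.2 to 88.1 normalised counts in the control hybrids and its BALB/cJ allele 0.97 to 9.70, and the log2 ratio was 4.34 ± 0.50 (edgeR adjusted p = 0.00515, n = 4).

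The peak near Cldn23, a tight junction claudin, had 125, 144 and 151 normalised counts in C57BL/6J LPS, against 10.5 and 7.92 in BALB/cJ LPS. It had 73.0 ± 22.3 in C57BL/6J control and 0.50 ± 0.64 in BALB/cJ control. Under LPS the C57BL/6J allele had 146 to 239 normalised counts and the BALB/cJ allele 17.1 to 50.0, a log2 ratio of 2.28 ± 0.19 (edgeR adjusted p = 7.24e-05, n = 5). In the control hybrids the C57BL/6J allele had 215 tags and the BALB/cJ allele 2.5, rounded to 3, a ratio of 71.7 with a counting interval of 24.2 to 350.2. This peak stands in a window of chromosome 8 (35000001 to 36000000) in which 11 of 86 peaks were C57BL/6J-only.

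The other 6 of the 10 named peaks with the smallest p in hybrid control gave log2 allele ratios of 2.32 to 3.93 there. They were a peak in an intron of Lrp6, a Wnt co-receptor, the peak in Ttc27 printed above, and a peak upstream of Zfp691. This last peak lay in the 3' UTR of another transcript. The remaining ones lay near Slamf9, a SLAM family surface receptor, Papd7, a poly(A) polymerase, and Smchd1, a repressor of the inactive X chromosome. The ratio in Lrp6 was 1.18 ± 0.31 in LPS hybrids and 3.66 ± 0.26 in control hybrids, both called (edgeR adjusted p = 0.0207 and 0.00178, n = 5 and 4), and the call in LPS was lost without replicate 1 (1.02) or replicate 2 (1.00). Whether the ratios of the 2 conditions differ was not tested. Without control replicate 1, the control calls of Supt20, Cldn23, Papd7 and Smchd1 were lost, with log2 ratios of 8.36, 8.73, 3.57 and 2.25 then.

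**Figure D3:**
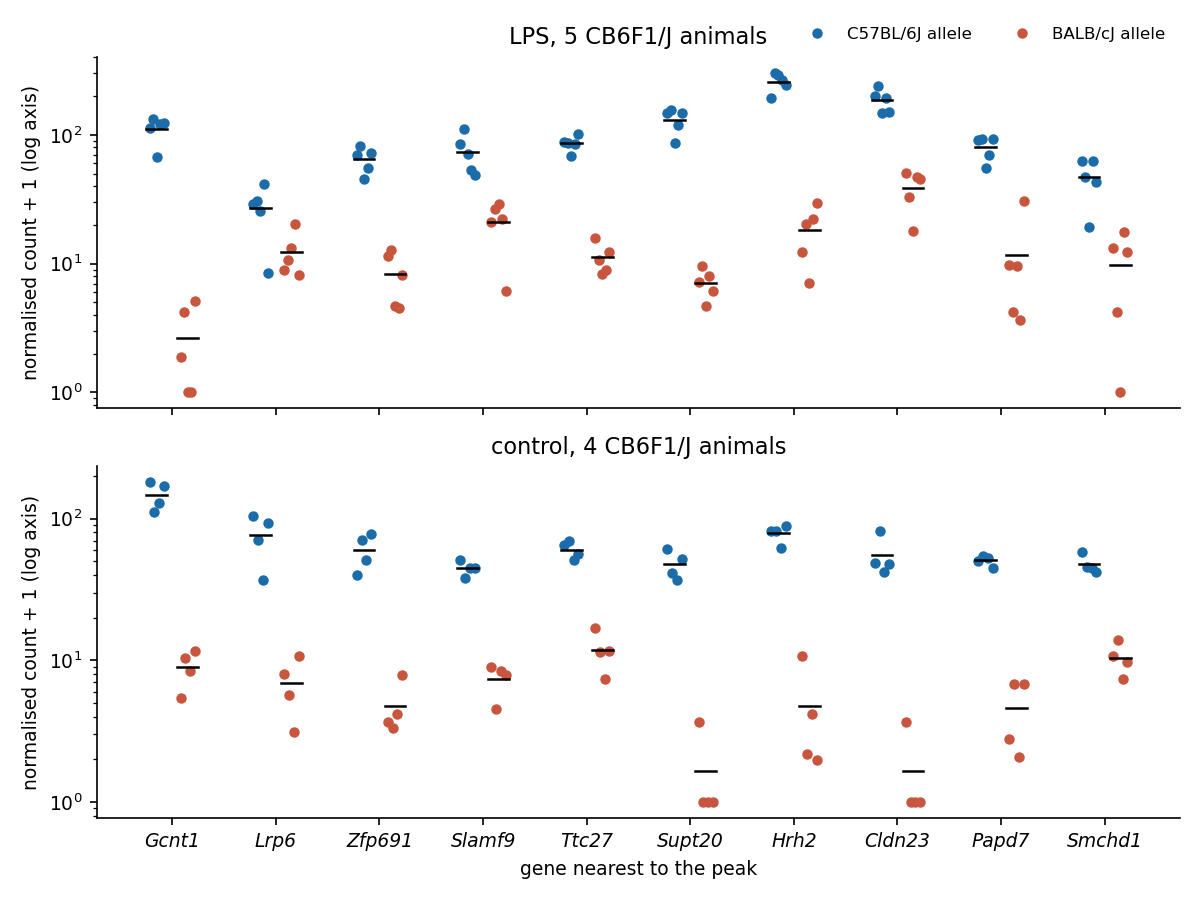
Normalised counts of variant-spanning tags plus 1 on a log axis for the 10 named peaks with the smallest p in hybrid control. LPS animals are at the top and control animals at the bottom. Each point is 1 animal, blue for the C57BL/6J allele and red for the BALB/cJ allele, and lines mark means; in control no blue point lies below a red point of the same peak.

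At a few of the tested peaks the allele ratio was near 0 and was not called. The promoter of Btbd11 (chr10:85386624-85386824) had the highest C57BL/6J level of all the peaks named here, with 274, 274, 261 and 254 normalised counts in C57BL/6J control, against 5.27, 1.95, 5.37 and 7.19 in BALB/cJ control. In the control hybrids the C57BL/6J allele had 36.4, 22.4, 41.8 and 22.98 and the BALB/cJ allele 35.3, 21.0, 43.3 and 20.4. The alleles lay on each other in every animal, with a log2 ratio of 0.06 ± 0.22 (edgeR adjusted p = 0.929, n = 4). In the LPS hybrids this peak had 0 variant-spanning tags but 1446 perfectly mapped tags, so no allele ratio could be had there, and the cause of the 0 was not tested.

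The peak near Srsf1, a splicing factor, had 32.4 ± 7.3 normalised counts in C57BL/6J control and 4.84 ± 3.71 in BALB/cJ control, and a log2 allele ratio of -0.18 ± 0.33 in control hybrids (edgeR adjusted p = 0.97, n = 4). A peak at an annotated transcript end 15.4 kb from the start of Il12b, the p40 subunit of IL-12 and IL-23, had 51.1 ± 12.0 in C57BL/6J control and 32.8 ± 6.2 in BALB/cJ control, a strain log2 ratio of 0.65 ± 0.31 (SE). Its log2 allele ratio was 0.02 ± 0.18 in LPS hybrids and -0.45 ± 0.46 in control hybrids (edgeR adjusted p = 0.948 and 0.635, n = 5 and 4).

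Of 100 peaks nearest to MHC class II genes, 7 were C57BL/6J-only (7.00%, beside 1.59% of all peaks), and 4 of these were in the A/J list. One of the others, an intronic peak of Cd74, whose product escorts MHC class II molecules, had 68.9 to 149 normalised counts in C57BL/6J control and 0 in every A/J and BALB/cJ library. In the MHC region of chromosome 17, the peak in exon 36 of 65 of the collagen gene Col11a2 (chr17:34057334-34057534) had 125 ± 29 normalised counts in A/J, 182 ± 43 in C57BL/6J control and 0.54 ± 0.66 in BALB/cJ control. Its log2 allele ratio was 3.97 ± 0.30 in LPS hybrids and 2.60 ± 0.57 in control hybrids (edgeR adjusted p = 4.08e-05 and 0.033, n = 5 and 4), and the call in control was lost without replicate 3 (2.87) or replicate 4 (2.72). The peak near H2-DMb2, whose product helps load peptides on MHC class II, had 42.7 ± 6.9 in A/J, 50.6 ± 17.7 in C57BL/6J control and 7.18 ± 6.81 in BALB/cJ control. Its log2 allele ratio was called in LPS hybrids at 1.52 ± 0.33 (edgeR adjusted p = 0.00897, n = 5) and was 1.17 ± 0.33 in control hybrids, not called (edgeR adjusted p = 0.0748, n = 4). The call in LPS was lost without replicate 2 (1.29).

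Some peaks held no tag in BALB/cJ at all. In 48 of the 1497 no tag fell in any of the 6 BALB/cJ libraries, the deep one included, and 28 of these held none in A/J either. Of the 48, 39 matched a hybrid peak, and 10 of those had a variant-spanning tag. The 1 tested in control and the 3 tested in LPS were called higher on the C57BL/6J allele. The strain genomes were mm10 with known variants put in, so a 0 says that no tag was placed there. Whether such a site is closed, missing or not mappable in BALB/cJ was not tested.

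The peak near Nlrp1b, an inflammasome sensor that differs between mouse strains, is one of these. It had 242, 321, 297 and 358 normalised counts in A/J, 223, 271, 255 and 222 in C57BL/6J control and 0 in all 6 BALB/cJ libraries. C57BL/6J control was at least 1083-fold higher than the limit set by 3 tags over the BALB/cJ control group, and at least 205-fold higher without its deep replicate 4. A second such peak at the promoter of the pseudogene Nlrp1c-ps had 62.3 ± 20.7 in A/J, 42.9 ± 7.1 in C57BL/6J control and 0 in BALB/cJ. Neither had a variant-spanning tag in the hybrid. These genes lie among near-identical copies, so the placing of their tags is uncertain.

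Named peaks near Sirpb1b, Klra4 and Pira2, genes of multigene immune families, held no tag in A/J or BALB/cJ. The promoter peak of Sirpb1b, a signal-regulatory protein, had 65.8 to 81.9 normalised counts in C57BL/6J control and 0 in every A/J and BALB/cJ library. The peak near Klra4, a Ly49 receptor of natural killer cells, had 74.1 to 106 in C57BL/6J control. It lay upstream of Klra4, in an intron of another transcript. An intronic peak near Pira2, a paired immunoglobulin-like receptor, had 14.6 to 26.1 in C57BL/6J control. Both peaks had 0 in A/J and BALB/cJ. The peak 75.8 kb from Vgll3, a transcription cofactor outside these families, had 117 to 159 in C57BL/6J control and 0 in A/J and BALB/cJ, at least 125-fold higher in C57BL/6J than the limit for A/J.

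A/J, which was not used in the choice, was low at most of these peaks. The A/J list held 357 of the 1497 peaks (23.8%), whereas it held 59.4% of all peaks. In these 357 the median normalised count was 20.0 in A/J, 21.0 in C57BL/6J and 6.18 in BALB/cJ. In the other 1140 it was 4.58 in A/J, 19.02 in C57BL/6J and 4.04 in BALB/cJ. The log2 ratio of A/J over C57BL/6J was below -3 in 394 peaks (26.3%), between -3 and -1 in 469 (31.3%), between -1 and 1 in 618 (41.3%) and above 1 in 16. Among the 648 peaks with a C57BL/6J mean of at least 16 and a strain log2 ratio over 2, it was below -3 in 331 and between -1 and 1 in 121. No test was made, since the C57BL/6J libraries chose the peaks and a choice for high C57BL/6J values lowers this ratio.

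**Figure D4:**
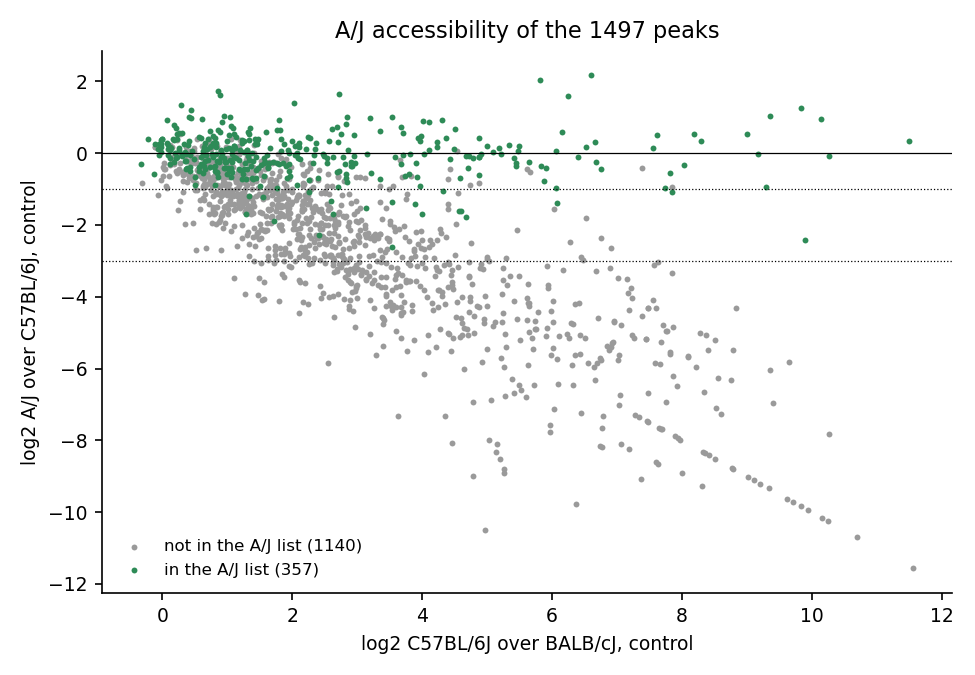
Log2 ratio of A/J over C57BL/6J (vertical axis) against log2 ratio of C57BL/6J over BALB/cJ (horizontal axis) in control mice, 1 point per C57BL/6J-only peak. Peaks of the A/J list (green, 357) lie mostly near 0 and the other 1140 (grey) mostly below; points along the falling diagonal have like levels in A/J and BALB/cJ.

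Calls on the C57BL/6J allele were made both among peaks in the A/J list and among the others, of which 26.1% still had a log2 ratio of A/J over C57BL/6J above -1. Of the peaks in the A/J list, 40 of 50 tested in LPS and 20 of 28 tested in control were called higher on the C57BL/6J allele, and of the others 146 of 185 and 50 of 76. A peak in an intron of Fam129c had 177 ± 67 normalised counts in A/J, 165 ± 68 in C57BL/6J control and 9.35 ± 3.47 in BALB/cJ control, and log2 allele ratios of 1.99 ± 0.20 in LPS hybrids and 1.44 ± 0.31 in control hybrids (edgeR adjusted p = 0.000166 and 0.0303, n = 5 and 4). Its call in control was lost when any of the 4 replicates was left out. The peak upstream of Zfp691 had 164 ± 38 in A/J, 139 ± 30 in C57BL/6J control and 2.88 ± 1.41 in BALB/cJ control.

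Among peaks with a mean of at least 16 normalised counts in C57BL/6J control, predicted genes left aside and 1 peak taken per gene, the ratio of A/J over C57BL/6J was one of the 5 highest near Rrp15, a ribosome biogenesis factor. This peak had 193 ± 62 normalised counts in A/J, 96.0 ± 9.8 in C57BL/6J control and 6.44 ± 3.78 in BALB/cJ control. Among the 5 lowest of the same peaks, the one 162 kb from Igf1, an insulin-like growth factor, had 0 in all 4 A/J libraries, 99.1, 104, 155 and 129 in C57BL/6J control and 5.27, 5.85, 4.03 and 2.95 in BALB/cJ control. C57BL/6J was at least 109-fold above the limit for A/J at this peak.

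In the hybrid, more of the C57BL/6J-only peaks were called higher in LPS than lower. In this response the variant-spanning tags of both alleles were summed, for peaks with a mean above 4. Of 600 tested, 128 (21.3%) were higher in LPS, beside 13.8% of all hybrid peaks tested, and 37 (6.17%) were lower, beside 10.8% of all. Among all peaks of the inbred table that matched a hybrid peak, 18.7% were higher and 11.3% lower, so the share that was higher lay near this background. Among peaks of the opposite pattern, in both BALB/cJ lists and neither C57BL/6J list, 158 of 742 were higher (21.3%) and 25 lower (3.37%). A low share of losses was thus not particular to the C57BL/6J-only peaks. Perfectly mapped tags, an alternative chosen after seeing the data, allowed all 1200 matched peaks to be tested, and 291 were higher (24.2%, beside 14.3% of all and 21.6% of all matched peaks) and 60 lower (5.00%, beside 10.5% and 9.38%). By these tags, 29.9% of the peaks of the opposite pattern were higher and 2.48% lower. The library names of the LPS and control hybrids carry different dates, and the date and LPS cannot be told apart. In inbred C57BL/6J the median log2 ratio of LPS over control was 0.31, against -0.04 over all peaks. It was described and not tested, since the rule asked for a peak in both conditions.

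Among the named peaks, the largest gain was at a peak in intron 4 of 30 of Tns3, a tensin of focal adhesions. It had 105, 123, 69.6, 193 and 145 normalised counts in the LPS hybrids and 5.98, 6.83, 1.25 and 5.72 in the control hybrids. The groups were far apart, with a log2 ratio of 4.64 ± 0.40 (edgeR adjusted p = 4.67e-10). Nearly all of it was on one allele, since in the LPS hybrids the C57BL/6J allele had 116, 133, 76.0, 202 and 167 normalised counts and the BALB/cJ allele 1.75, 3.19, 4.87, 14.03 and 5.14. In the inbred mice this peak had 18.3, 97.7 and 85.2 in C57BL/6J LPS and 1.74 and 3.52 in BALB/cJ LPS.

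The peak near Nxpe4 printed above had 98.0, 115, 109, 99.3 and 158 normalised counts in the LPS hybrids and 1.99, 20.5, 15.0 and 5.72 in the control hybrids, a log2 ratio of 3.47 ± 0.40 (edgeR adjusted p = 8.05e-08). Its log2 allele ratio in LPS hybrids was 4.04 ± 0.17 (edgeR adjusted p = 4.72e-06, n = 5). The Hrh2 and Cldn23 peaks rose too, by 1.32 ± 0.20 and 1.60 ± 0.24 on the log2 scale (edgeR adjusted p = 6.49e-06 and 5.88e-06). The peaks near Prss21, a serine protease, Tcp10a and E2f1, a cell cycle factor, rose by 3.54, 3.37 and 3.02. Their means in the control hybrids were only 1.47, 1.27 and 2.53 normalised counts, so these ratios rest on few tags. With perfectly mapped tags they rose by 1.47, by 2.39 and, not called, by 0.87 (edgeR adjusted p = 0.0168, under the log2 limit of 1). In inbred C57BL/6J the log2 ratios of LPS over control were -0.38, 0.88 and 0.82.

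The peak in Lrp6 was lower in LPS hybrids, with 31.2, 35.2, 31.6, 53.5 and 12.5 normalised counts, against 127, 88.8, 46.3 and 121 in control hybrids, a log2 ratio of -1.54 ± 0.34 (edgeR adjusted p = 0.000928). The peak 89.8 kb from Hes1, a repressor induced by Notch, had 0 to 12.2 in LPS hybrids and 8.20 to 41.3 in control hybrids, a log2 ratio of -2.002 ± 0.732 (edgeR adjusted p = 0.0406) that was lost without LPS replicate 2, 4 or 5 or control replicate 3 or 4 (-1.62 to -2.08).

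The 5 largest losses of the named peaks were at Btbd11, Nfkbid, an atypical inhibitor of NF-kB, Samd9l, an antiviral gene, a second peak of Ttc27 and Rrp15. They rest on peaks with 0 variant-spanning tags in all LPS hybrids, apart from Rrp15 with 2.5 in sum. Fitted ratios against 0 tags depend on the small count that the fit adds and are no measure of size. Their log2 ratios of LPS over control were -9.20, -7.61, -7.36, -6.54 and -5.47, and with perfectly mapped tags -0.35, -1.997, -1.44, 0.31 and -2.66. Only those of Nfkbid and Rrp15 were called by both. In all, 6 of the peaks had over 20 variant-spanning tags in the control hybrids and 0 in the LPS hybrids, and none had the reverse. Among all hybrid peaks this was counted at a limit of 50 tags and occurred both ways. Of 10597 peaks with over 50 tags in the control hybrids, 270 had 0 in the LPS hybrids. Of 16089 with over 50 in the LPS hybrids, 112 had 0 in the control hybrids. The cause was not tested.

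Near genes of the Kupffer cell and LPS programmes, the shares lay around that of all peaks or below it. C57BL/6J-only peaks made up 6 of 506 peaks nearest to Kupffer cell identity genes (1.19%), 7 of 445 for TLR4 and NF-kB signalling (1.57%), 6 of 283 for interferon genes (2.12%) and 7 of 276 for cytokines and chemokines (2.54%), beside 1.59% of all peaks. The highest shares of lists without MHC genes were 6 of 131 for the inflammasome (4.58%) and 10 of 138 for genes that the study used as examples on these samples (7.25%). No peak nearest to listed markers of neutrophils, lymphocytes, hepatocytes, endothelium or stellate cells was C57BL/6J-only, of 17, 23, 32, 71 and 35. Genes were assigned by nearest start, which does not show that a peak acts on that gene.

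The Marco peak printed above, near a scavenger receptor of macrophages, had 80.1, 50.1 and 67.7 normalised counts in C57BL/6J LPS, against 8.71 and 0 in BALB/cJ LPS. It had 24.3 ± 12.3 in A/J, 29.0 ± 9.6 in C57BL/6J control and 2.42 ± 2.01 in BALB/cJ control. A peak 35.1 kb from Cd5l, a secreted macrophage protein, had 1.32 ± 0.93 in A/J, 17.1 ± 0.90 in C57BL/6J control and 8.16 ± 4.59 in BALB/cJ control. An intronic peak of Irak3, which restrains TLR signalling, had 33.7, 31.4 and 32.7 in C57BL/6J LPS and 11.3 and 18.5 in BALB/cJ LPS, and 20.0 ± 3.1 in C57BL/6J control and 2.14 ± 2.55 in BALB/cJ control.

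The peak near Cxcr4, the receptor of the chemokine Cxcl12, had 39.1 ± 12.3 in C57BL/6J control and 4.22 ± 1.23 in BALB/cJ control. Its log2 allele ratio was 2.85 ± 0.28 in LPS hybrids (edgeR adjusted p = 0.000144, n = 5) and 2.28 ± 0.66 in control hybrids, not called (edgeR adjusted p = 0.0809, n = 4). The study counts the gene Cxcr4 among those expressed more in BALB/cJ and shows an enhancer upstream of it that is specific to BALB/cJ. The peak described here therefore does not stand for the expression of Cxcr4. An intronic peak of Slc7a2, a transporter of arginine and lysine, had 32.3, 72.2 and 111 in C57BL/6J LPS and 6.10 and 14.1 in BALB/cJ LPS, and 21.5 ± 4.0 in C57BL/6J control and 0.61 ± 0.74 in BALB/cJ control. The peak 42.7 kb from Lpl, the lipoprotein lipase, had 39.8 ± 5.6 in C57BL/6J control and 0.75 ± 1.27 in BALB/cJ control, and a log2 allele ratio of 1.96 ± 0.48 in control hybrids (edgeR adjusted p = 0.0467, n = 4), which was not called without replicate 3 (1.91) or replicate 4 (1.62) or with the size factors of DESeq2 (1.97, edgeR adjusted p = 0.0501).

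The C57BL/6J-only peaks lay away from gene starts and more often in repeats than peaks in general. Promoters held 7.15% of them, against 15.1% of all peaks, and intergenic sequence 42.9%, against 34.5%. Their median distance to the nearest start was 15411 bp, against 10866 bp. The peak centre lay in an annotated repeat in 24.9%, against 16.6%, in an LTR element in 11.4%, against 7.11%, and in a LINE in 4.88%, against 3.53%. Among the 519 peaks with a strain log2 ratio over 3, LTR elements held 15.4%. Among the 48 without a BALB/cJ tag, 35.4% were in a repeat and 22.9% at promoters. An example is the peak 41.1 kb from Pon2, a paraoxonase, which is masked as repeat over all of its length (Lx3_Mus) and had 232 ± 31 normalised counts in C57BL/6J control, 4.06 ± 3.18 in BALB/cJ control and no matched hybrid peak.

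Motif letters differed little. AP-1 letters were in 13.8% of the peaks and 14.3% of all peaks, but in 18.7% of the 519 with a strain log2 ratio over 3. IRF letters were in 11.6%, against 8.88%, C/EBP letters in 12.8%, against 11.5%, PU.1 letters in 8.35%, against 8.59%, and NF-kB letters (GGGNNTTCC or GGAANNCCC) in 5.61%, against 4.82%. These shares were not tested.

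**Figure D5:**
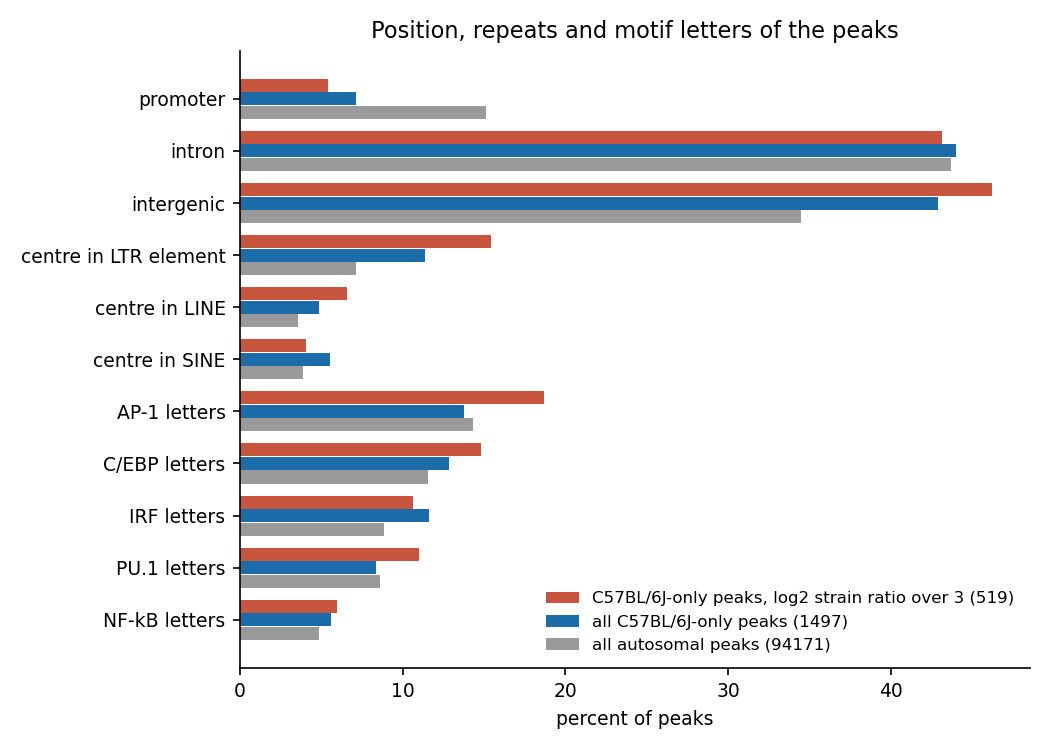
Share of peaks (horizontal axis, percent) by position, repeat class and motif letters, for the 519 C57BL/6J-only peaks with a strain log2 ratio over 3 (red), all 1497 (blue) and all 94171 autosomal peaks (grey). Promoters hold 7.15% of the 1497 against 15.1% of all peaks, and LTR elements 11.4% against 7.11%.

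Variants were more often within reach of a tag in these peaks. Of the 1200 matched peaks, 54.7% had a variant-spanning tag in the hybrid, against 21.1% of all matched peaks. The median strain log2 ratio in control was 3.02 with such a tag and 1.30 without, and 76.9% of the 428 matched peaks with a ratio over 3 had one. The 544 matched peaks without such a tag have no allele value.

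The peaks were spread over the autosomes, at 0.97 to 2.25% of the peaks of a chromosome, with local clusters. They fell in 773 of the 2103 windows of 1000000 bp that hold a peak, 414 windows held 1, and 42 held at least 5, with 280 of the 1497 peaks. The fullest, on chromosome 3 (127000001 to 128000000), held 12 among 71 peaks, near Ank2 and Zgrf1. The window of Nxpe4 on chromosome 9 (48000001 to 49000000) held 7 among 40.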

How the data were processed

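Kupffer cell ATAC-seq libraries (26, of which 17 are inbred) were analysed. The authors trimmed reads to 30 bp, mapped them with Bowtie2 to mm10 or to strain genomes built from mm10 with known variants, and called peaks with HOMER and IDR. The deposited inbred tables hold tag counts per peak in windows of 1000 bp, and the deposited hybrid tables hold estimated counts. Apart from the inbred LPS columns, 4.55 to 49.7% of a column's values were not whole, and these were rounded upwards at 0.5. The peak lists give the authors' scaled IDR score, and lists of single BALB/cJ libraries give the authors' signal in normalised tags. In all, 18 columns of per-sample values match no sample and were not used.

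Inbred and hybrid peaks were matched by 50% of each (1200 of 1497). Allele ratios (4 control, 5 LPS animals, animal as a term) and the LPS response were fitted over all hybrid peaks with edgeR 4.0.16 in R 4.3.3 (TMM, quasi-likelihood, Benjamini-Hochberg), with DESeq2 1.42.0 as an alternative. A call needed an adjusted p under 0.05 and an absolute log2 ratio over 1, and a mean normalised count above 16 (alleles) or 4 (response). Strain, A/J and inbred LPS ratios involve libraries that chose the peaks and were not tested. The members and lists were chosen with earlier results of these data known. Scripts were tested on simulated data. Low minimum counts, other normalisations, other tags, leaving out each replicate and other list rules were tried.

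Peaks are named by nearest gene start. Named were the 10 of smallest p among the control allele calls, up to 6 with a ratio near 0 and the 8 highest in C57BL/6J control. Added were up to 3 per gene list, the 5 highest and 5 lowest in A/J over C57BL/6J, the 5 largest responses each way, and 4 at the limit of the rule. The text uses some of these. One result is withheld and not reported here.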

Additional observations from a re-analysis of the deposited data

Results flagged for a closer look

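In 213 groups of 4 or 5 samples of the named peaks, 20 had a sample standing apart from the rest of its group, where chance gives about 1 in 20. Values are normalised counts.

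Of these, 10 were single low values beside libraries at or near 0. In A/J control these were Cldn23 in replicate 1 (1.542), Lpl (3.282), Slc7a2 (3.282), Tns3 (8.752) and E2f1 (4.376) in replicate 2. In BALB/cJ control these were Supt20 (1.342) in replicate 3 and Lpl (2.637) and Nxpe4 (1.319) in replicate 1. On the BALB/cJ allele of the control hybrids these were Supt20 (2.644) and Cldn23 (2.644), both in replicate 1.

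Higher values stood apart elsewhere. The BALB/cJ allele of the LPS hybrids had 29.8 at Papd7 in replicate 5, 13.15 at Cxcr4 in replicate 1 and 14.03 at Tns3 in replicate 4. The C57BL/6J allele had 176.1 at Nxpe4 in LPS replicate 5 and 80.67 at Cldn23 in control replicate 2. Marco had 42.73 in A/J control replicate 3, and Nxpe4 had 36.91 in C57BL/6J control replicate 2. In BALB/cJ control, the peak near Relb, an NF-kB subunit, had 44.86 in replicate 2, beside 6.082 in the next library. Trak2 had 8.776 in replicate 2, and Pigl, which the rule kept out, had 26.85 in replicate 3.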

How the results depend on the processing

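The count of 186 peaks called on the C57BL/6J allele in LPS hybrids was 86 with a minimum of 32, 243 with no minimum, 164 to 195 with 1 replicate left out and 187 with no replicate block. The count of 70 in control hybrids was 18 with a minimum count of 32 (20 tested) and 0 with no minimum (654 tested, 251 above 0 at an unadjusted p under 0.05, smallest adjusted p 0.0977). It was 16 to 52 with 1 replicate left out, 75 with no replicate block and 81 with DESeq2. No setting called any of these peaks higher on the BALB/cJ allele.

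The response counts of 128 higher and 37 lower were 295 and 58 with all tags, 291 and 60 with perfectly mapped tags, 131 and 31 with a replicate block, and 96 to 137 and 29 to 42 with 1 replicate left out. Same-numbered LPS and control animals did not deviate together (r -0.02 to 0.01). The labels state no pairing, and these values cannot exclude one. With all tags the log2 response was 0.0117 at Btbd11, 1.00 at Samd9l and 0.59 at the second Ttc27 peak, where perfectly mapped tags gave 0.31. The response calls at Cldn23, Hes1, Rrp15, Prss21, Tcp10a and Nfkbid were lost with all tags. In the control hybrids, though not in the LPS hybrids, the deposited counts of all tags lay below those of perfectly mapped tags in 37.9 to 69.6% of peaks, so values with all tags are uncertain. The cause was not tested.

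The allele ratio near Il12b changed sign. In LPS it was -0.0056 with DESeq2, -0.0024 with its size factors and -0.19 to 0.0888 with 1 replicate left out. In control it was -0.80 to 0.0312 with 1 replicate left out. The rule itself gave 440 peaks at a C57BL/6J score of at least 830, 290 without a peak in any single BALB/cJ library, 1637 with an overlap of 100 bp and 2149 with lists of equal length, of which 1084 were shared. Of the 1200 matched peaks, 544 had no variant-spanning tag and so no allele value, and 235 (LPS) and 104 (control) of the other 656 passed the minimum count.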
